A study of Mus musculus with 12 samples.

Results

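The 9 genes described here encode enzymes that make or use glutamate, with asparagine synthetase and the mitochondrial form of phosphoenolpyruvate carboxykinase beside them. They were chosen by symbol, Asns, Pck2, Gpt2, Got1, Got2, Glud1, Glul, Pycr1 and Aldh18a1, from 52535 gene entries in the count tables. All 9 were present, and all 9 were among the 14946 genes tested. RNA was sequenced from E14 cells, a mouse embryonic stem cell line, in 3 groups of 2 libraries each. These are clone 2 labelled as a Bcat1 knockout (Bcat1-KO), clone 1 labelled as a Bcat1 knockout, and the wild type (WT). All groups were grown in medium with serum, LIF, the inhibitor mix called 2i, L-glutamine and non-essential amino acids, and their RNA was depleted of ribosomal RNA, per the labels' protocols. Each knockout group is a single clone, and how the gene was disrupted is not given in the sources used here. Whether the replicates of a group were grown separately is not stated, so each p-value here rests on variation among libraries that may be purely technical.

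Glutamate is the hub of amino acid nitrogen. Transaminases such as Bcat1 move amino groups onto alpha-ketoglutarate and so form glutamate, from which other enzymes make alanine, aspartate, glutamine and proline. Glutamate dehydrogenase (Glud1) runs the reverse exit, releasing ammonia and returning the carbon to the citric acid cycle. Mouse embryonic stem cells are known for heavy use of glutamine. Several of the 9 genes, Asns best known among them, are described targets of ATF4, the transcription factor of the amino acid response.

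Gene counts totalled 11976149 and 12864573 in clone 2, 12116149 and 12618319 in clone 1, and 13294805 and 13923262 in WT. Replicates were distinct libraries, since counts within a group varied beyond counting error (mean chi-square for a gene, 3.45 in clone 2, 9.66 in clone 1 and 3.78 in WT). Bcat1 RNA stood at 581 ± 2.38 CPM in clone 2, 639 ± 31.9 CPM in clone 1 and 608 ± 8.35 CPM in WT (SD, n = 2 each), so its RNA level does not check the knockout labels, and all directions rest on them. All 10 stem cell markers were present. Their summed level was 6744 and 6745 CPM in clone 2, 6532 and 6614 CPM in clone 1, and 7199 and 7382 CPM in WT. Against WT, 3 were called lower (background 7.81%) in clone 2 and 4 (9.53%) in clone 1. In each clone 0 were called higher, and 1 was at an unadjusted p under 0.05. Sox2 changed by -0.28 in clone 2 (adjusted p = 0.0293) and by -0.32 in clone 1 (adjusted p = 0.0115). The lowest marker was Utf1, a chromatin-associated factor of stem cells, at 48.0 CPM in a library of clone 2. Utf1 also fell with genotype by 1.22 ± 0.31 on the log2 scale (SE, adjusted p = 0.0488), a call lost without either WT library, and Klf4, a naive pluripotency factor, fell by 0.41 ± 0.09 in clone 1 (adjusted p = 0.00499). The summed level of 9 fibroblast markers was 21.7 CPM in both libraries of clone 2, 33.7 and 36.6 CPM in clone 1, and 24.4 and 25.2 CPM in WT, with Postn, Lum and Dcn at 0 counts in every group. Of these, Col1a2, a collagen gene, rose with genotype, a call also lost without either WT library, but did not exceed 1.74 CPM, and Thy1 rose in clone 1 to 5.43 ± 0.513 CPM, against 2.82 ± 0.820 CPM in WT (SD, n = 2 each). The summed level of 8 primitive endoderm markers was 29.8 and 34.5 CPM in clone 2, 50.8 and 53.3 CPM in clone 1, and 28.0 and 31.4 CPM in WT. Of 5 tested, 2 were called higher in clone 1 (background 12.4%) and 1 in clone 2 (10.1%). None was called lower, though 1 was lower in clone 2 at an unadjusted p under 0.05. Lamb1, a laminin subunit, rose in clone 1 by 0.74 ± 0.11, and Gata4 by 1.43 (adjusted p = 0.0159). Dab2, an endocytic adaptor, rose in clone 2 to 1.05 ± 0.298 CPM, against 0.151 ± 0.00465 CPM in WT (SD, n = 2 each). Its change of 2.15 in clone 1 was not called (adjusted p = 0.0597). The part of these marker changes in the results below was not tested. In bulk RNA, fewer cells of a type and less RNA per cell cannot be told apart.

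The start regions of the genes are shown because a motif of the amino acid response can be read there directly. RefSeq windows on GRCm38.p6, 250 bases before to 50 bases after the start of the gene, matched all 9 by symbol. They were searched on both strands for TGATGNAA, the shared core of C/EBP-ATF response elements, which bind ATF4. It was found in 4 of the 9 windows, those of Asns, Pck2, Got1 and Pycr1, against 1304 of all 32851 windows (3.97%). A match is a description of letters and does not show binding. Each line gives 80 bases, 5′ to 3′ on the gene's strand, with the match in capitals; in Pck2 and Got1 the motif lies on the opposite strand and reads as its reverse complement. The first base of the match lies 23 bases before the RefSeq start in Asns, 103 in Pck2 and in Pycr1, and 102 in Got1. In GENCODE M21 the Asns gene begins further upstream, and the match falls inside an exon there.
Asns, chr6:7693225-7693304, minus strand: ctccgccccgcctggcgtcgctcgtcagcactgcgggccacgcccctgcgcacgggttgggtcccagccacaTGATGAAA
Pck2, chr14:55540127-55540206, plus strand: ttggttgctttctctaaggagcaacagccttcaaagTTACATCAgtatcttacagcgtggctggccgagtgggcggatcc
Got1, chr19:43524664-43524743, minus strand: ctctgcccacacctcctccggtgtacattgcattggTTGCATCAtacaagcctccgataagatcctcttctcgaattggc
Pycr1, chr11:120643808-120643887, minus strand: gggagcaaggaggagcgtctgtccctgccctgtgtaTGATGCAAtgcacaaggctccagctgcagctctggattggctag
The 120 bases before the start of Glud1, the gene that fell in both clones, hold no such match. Its whole window had a GC content of 81.0%, against a median of 52.7% over all windows and 55.0% to 64.3% in the other 8 members.
Glud1, chr14:34310607-34310726, plus strand: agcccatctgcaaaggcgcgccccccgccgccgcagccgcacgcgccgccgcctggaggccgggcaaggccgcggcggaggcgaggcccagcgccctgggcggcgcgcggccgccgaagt

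Levels of the members differed widely. Divided by the length of all annotated exons (CPM per kb), Asns was highest in every group, at 390 ± 0.603 in clone 2, 347 ± 13.7 in clone 1 and 417 ± 17.1 in WT (SD, n = 2 each), and Pycr1 was lowest, at 16.6 ± 0.137, 8.80 ± 0.214 and 11.7 ± 0.359. In WT, Glud1 followed Asns at 148 ± 3.50, then Got1 at 104 ± 1.87 and Aldh18a1 at 40.2 ± 0.910. Glul at 29.5 ± 0.761, Got2 at 27.9 ± 0.306, Pck2 at 25.7 ± 0.952 and Gpt2 at 24.9 ± 0.284 lay close together, and the ranges of Pck2 and Gpt2 overlapped. In clone 1 the order from the top was Asns, Glud1, Got1, Aldh18a1, Got2, Glul, Gpt2, Pck2 and Pycr1. In clone 2 it was Asns, Got1, Glud1, Aldh18a1, Gpt2, Got2, Pck2, Glul and Pycr1, where Got1 overlapped Glud1 and Got2 overlapped Pck2. The exon length of Pck2, 7806 bases, counts every annotated transcript, so its level per kb may be understated.

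**Figure D1:**
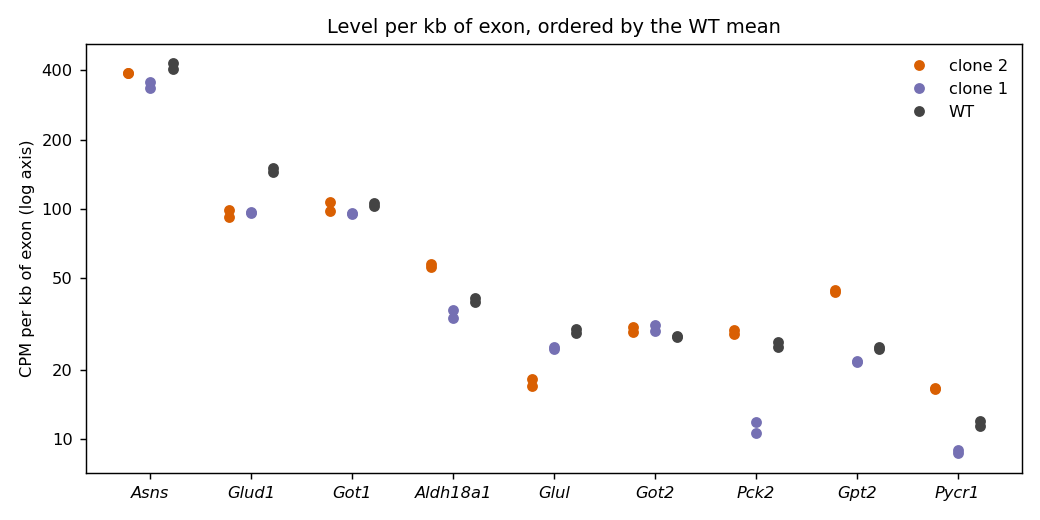
CPM per kb of annotated exon (log axis) of the 9 enzymes, ordered by their WT mean; each point is 1 library, in the order clone 2, clone 1 and WT. Asns stands at the top in every group and Pycr1 at the bottom, while Gpt2, at 43.9 in clone 2, lies above Got2, Pck2 and Glul there.

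Glud1, the mitochondrial glutamate dehydrogenase, fell in both clones and by nearly the same amount (ENSMUSG00000021794.16, GRCm38 chromosome 14, 34310727 to 34345265). It had 416 and 389 CPM in clone 2, 409 and 406 CPM in clone 1, and 631 and 611 CPM in WT. All libraries labelled knockout lay below both WT libraries. The log2 fold change was -0.63 ± 0.08 in clone 2 (SE, adjusted p = 1.77e-05) and -0.61 ± 0.08 in clone 1 (adjusted p = 2.02e-05). The clones differed from each other by -0.02, with a 95% interval of -0.18 to 0.14. With both clones taken as 1 genotype the mean was 405 ± 11.6 CPM (SD, n = 4), against 621 ± 14.7 CPM in WT (n = 2), a log2 change of -0.62 ± 0.07 (adjusted p = 0.00158). It was the single member called for genotype, while 6.36% of all tested genes were called in that comparison, 2.11% lower and 4.25% higher. No member was called higher by edgeR, by DESeq2 or at an unadjusted p under 0.05 (0 in each case). The genotype fit counts 4 libraries of 2 clones as independent, so its p may be too small. The call was lost without WT replicate 1 (adjusted p = 0.0562), and the log2 change was then -0.60. Counts of the pseudogene Glud-ps were 16 to 25 per library against 8185 and 8267 counts of Glud1 in WT.

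Glul, the glutamine synthetase that adds ammonia to glutamate, was lower in clone 2 (ENSMUSG00000026473.15, chromosome 1, 153899944 to 153909723). It had 60.5 and 56.3 CPM in clone 2, 83.7 and 81.5 CPM in clone 1, and 96.4 and 99.9 CPM in WT. The groups did not overlap, with clone 2 lowest and clone 1 between it and WT. Glul fell by 0.75 ± 0.09 in clone 2 (adjusted p = 2.30e-05). In clone 1 the change was -0.25 ± 0.09 and was not called (adjusted p = 0.0580), and the genotype change of -0.48 ± 0.16 was not called either (adjusted p = 0.108). The clone 1 change passed with a replicate block (adjusted p = 0.0227) and without clone 1 replicate 1 (0.0376). The genotype change passed by DESeq2 (adjusted p = 0.0430), without the filter (0.00246) and as the mean of both clone contrasts (1.90e-04). Clone 2 lay below clone 1 by -0.50 ± 0.09 (adjusted p = 0.00144), a call that was lost without clone 2 replicate 2 (adjusted p = 0.0530). The exons of Glul overlap those of Teddm2, which had at most 2 counts in any library. Per kb of exon, the ratio of Glud1 to Glul was 5.43 and 5.45 in clone 2, 3.86 and 3.93 in clone 1, and 5.17 and 4.82 in WT. It was thus lowest in clone 1, where Glud1 had fallen and Glul was not called.

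Gpt2, the mitochondrial alanine transaminase, rose in clone 2 (ENSMUSG00000031700.11, chromosome 8, 85492576 to 85527560). It had 245 and 251 CPM in clone 2, 124 and 122 CPM in clone 1, and 142 and 139 CPM in WT. Both libraries of clone 2 stood far above the other 4. The log2 change was 0.82 ± 0.08 in clone 2 (adjusted p = 1.30e-06) and -0.20 ± 0.08 in clone 1, which was not called (adjusted p = 0.0887). Clone 2 exceeded clone 1 by 1.01 ± 0.08 (adjusted p = 2.70e-07), a 2.02-fold difference. The cytosolic paralog Gpt averaged 7.36 ± 2.02 CPM in clone 2, 6.04 ± 0.134 CPM in clone 1 and 5.69 ± 0.519 CPM in WT, and was called in no comparison (adjusted p between 0.316 and 0.835).

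Pck2, which makes phosphoenolpyruvate from oxaloacetate in mitochondria, fell in clone 1 more than any other member did in either clone (ENSMUSG00000040618.7, chromosome 14, 55540266 to 55551242). It had 223 and 232 CPM in clone 2, 82.6 and 92.5 CPM in clone 1, and 195 and 206 CPM in WT. Both libraries of clone 1 lay far below the other 4. The log2 change in clone 1 was -1.20 ± 0.09 (adjusted p = 6.50e-08), to 0.436 of the WT level. In clone 2 it was 0.18 ± 0.08 and not called (adjusted p = 0.144), and clone 2 exceeded clone 1 by 1.38 ± 0.09 (adjusted p = 2.62e-08). The clone 2 value passed the test in a fit of the 4 libraries compared (adjusted p = 0.0361) and without either library of clone 1 (0.0295 and 0.0288). The cytosolic paralog Pck1 had 3 counts in 1 library of clone 1 and 0 in all others. The antisense gene Gm10876, not analysed here, overlaps exons of Pck2, and since the strand setting of the counting is not given their reads cannot be told apart.

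Both proline synthesis genes rose in clone 2. Aldh18a1, which reduces glutamate to the precursor of proline and ornithine (ENSMUSG00000025007.13, chromosome 19, 40550257 to 40588463), had 234 and 228 CPM in clone 2, 137 and 147 CPM in clone 1, and 166 and 161 CPM in WT. Pycr1, the mitochondrial reductase of the last step (ENSMUSG00000025140.15, chromosome 11, 120635712 to 120643769), had 65.6 and 64.8 CPM in clone 2, 34.0 and 35.2 CPM in clone 1, and 45.0 and 47.0 CPM in WT. In both genes clone 2 was highest, clone 1 lowest and WT between them, with no overlap. Groups of 2 libraries can separate by chance. The share of all tested genes that separate is not given here, for these or the other members. Aldh18a1 rose by 0.50 ± 0.08 in clone 2 (adjusted p = 3.12e-04), while its change in clone 1 was -0.20 ± 0.08 (adjusted p = 0.0823, not called). Pycr1 rose by 0.50 ± 0.10 in clone 2 (adjusted p = 0.00205) and fell by 0.41 ± 0.10 in clone 1 (adjusted p = 0.00938). The clone 1 call of Pycr1 was lost without WT replicate 1 (adjusted p just above the threshold of 0.05) or WT replicate 2 (adjusted p = 0.0877). It was the single member called in opposite directions in the clones, a pattern found in 60 of all 14946 tested genes (0.401%). Clone 2 exceeded clone 1 by 0.91 ± 0.10 in Pycr1 (adjusted p = 1.52e-05) and by 0.70 ± 0.08 in Aldh18a1 (adjusted p = 1.84e-05).

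Oat, which makes the precursor of proline from ornithine, was lower in clone 2 than in clone 1 by -0.34 ± 0.08 (adjusted p = 0.00893) and was called against WT in neither clone.

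Asns, which builds asparagine with nitrogen from glutamine, was the most abundant member and changed little (ENSMUSG00000029752.12, chromosome 6, 7675169 to 7693254). It had 1065 and 1067 CPM in clone 2, 975 and 921 CPM in clone 1, and 1172 and 1106 CPM in WT. All libraries labelled knockout lay below both WT libraries, with clone 1 lowest, but the genotype change of -0.18 was not called (adjusted p = 0.246). Asns fell by 0.27 ± 0.07 in clone 1 (adjusted p = 0.0140). In clone 2 the change was -0.10 ± 0.07, with an interval of -0.25 to 0.06, and was not called (adjusted p = 0.402). The clone 1 call was lost when library totals were used without TMM factors (adjusted p = 0.100), where the log2 change was -0.17, and without WT replicate 1 (0.138). The clones differed by 0.17 ± 0.07, which was not called (adjusted p = 0.135).

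The aspartate transaminases, which move amino groups between aspartate and alpha-ketoglutarate and take part in the malate-aspartate shuttle, were called in no comparison. Got1, the cytosolic enzyme (ENSMUSG00000025190.13, chromosome 19, 43499752 to 43524605), had 271 and 249 CPM in clone 2, 241 and 244 CPM in clone 1, and 262 and 269 CPM in WT. Got2, the mitochondrial one (ENSMUSG00000031672.8, chromosome 8, 95864134 to 95888547), had 148 and 141 CPM in clone 2, 143 and 151 CPM in clone 1, and 136 and 134 CPM in WT. The spread is narrow, and the intervals limit any change. For Got1 they ran from -0.19 to 0.14 in clone 2 and from -0.30 to 0.03 in clone 1. For Got2 they ran from -0.07 to 0.28 in clone 2 and from -0.04 to 0.30 in clone 1. Of the aspartate-glutamate carriers of the same shuttle, Slc25a12 fell by 0.65 ± 0.11 in clone 1 (adjusted p = 5.79e-04) to 24.6 ± 0.195 CPM, against 38.4 ± 1.29 CPM in WT, and was not called in clone 2. Slc25a13 was called in no comparison.

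**Figure D2:**
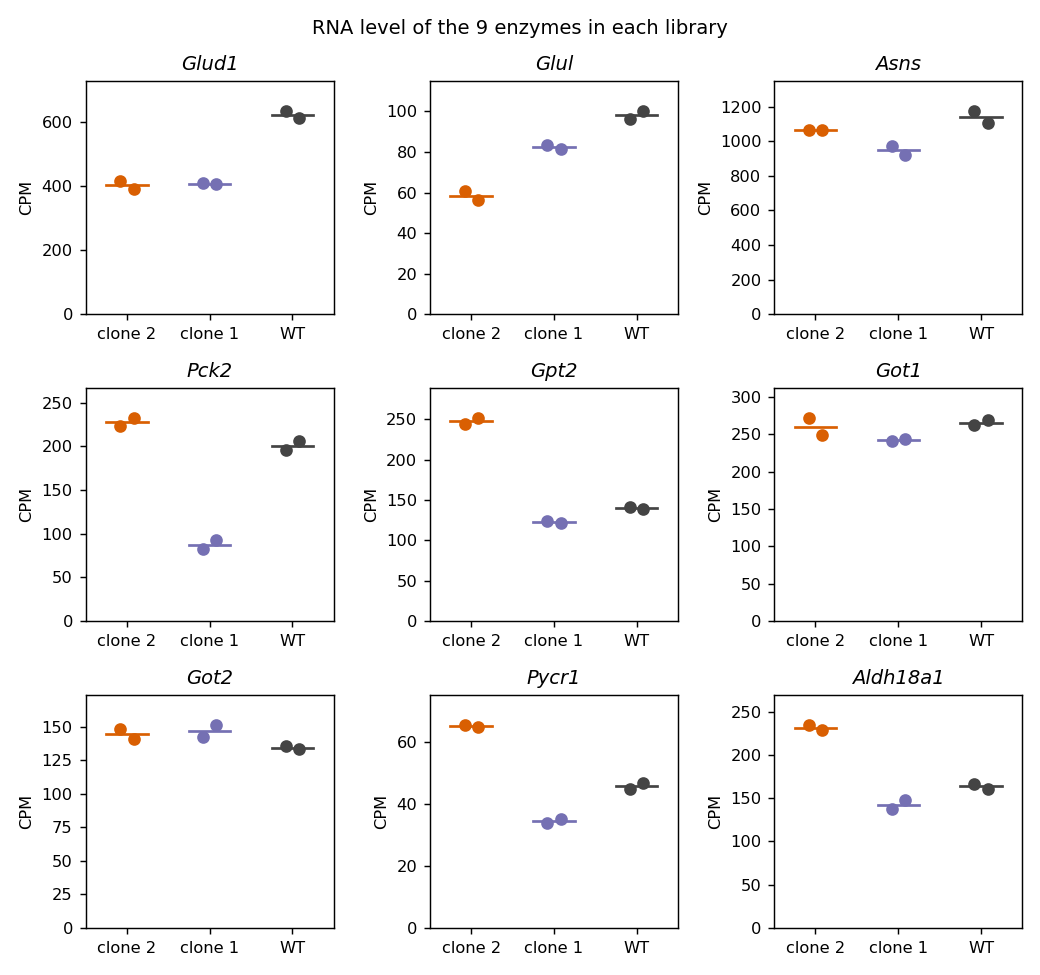
CPM (linear axes from 0) of each enzyme in clone 2, clone 1 and WT; each point is 1 library and the bar is the mean of both. Glud1 is low in both clones, Glul and Gpt2 are moved mainly in clone 2, and Pck2 is low in clone 1.

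Counts of called members are set here against the share of all tested genes called. In clone 2, 5 of 9 were called, where 17.9% of all tested genes were. Of these, 3 were higher (background 10.1%) and 2 lower (background 7.81%). In clone 1, where 21.9% of all tested genes were called, 0 members were higher (background 12.4%) and 4 lower (background 9.53%). No member was higher in clone 1 by DESeq2 or at an unadjusted p under 0.05, while 7 were lower at that unadjusted level. The share of all tested genes at the unadjusted level is not given here. Counts at that level therefore cannot be set against the backgrounds printed, which are for adjusted p. Both comparisons share the WT libraries. Between the clones, where 14.3% of all tested genes were called, 4 members were higher in clone 2 (background 6.62%), Pck2, Gpt2, Pycr1 and Aldh18a1, and 1 lower (background 7.71%), Glul. The median log2 difference of clone 2 minus clone 1 was 0.17 over the 9 members, against 0.00 over all tested genes. The motif shown above did not separate these members. Of the 4 with a match, 2 were called higher in clone 2 than in clone 1, Pck2 and Pycr1, and 2 were not called. Of the 5 without one, 2 were called higher, Gpt2 and Aldh18a1, 1 lower and 2 were not called.

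**Figure D3:**
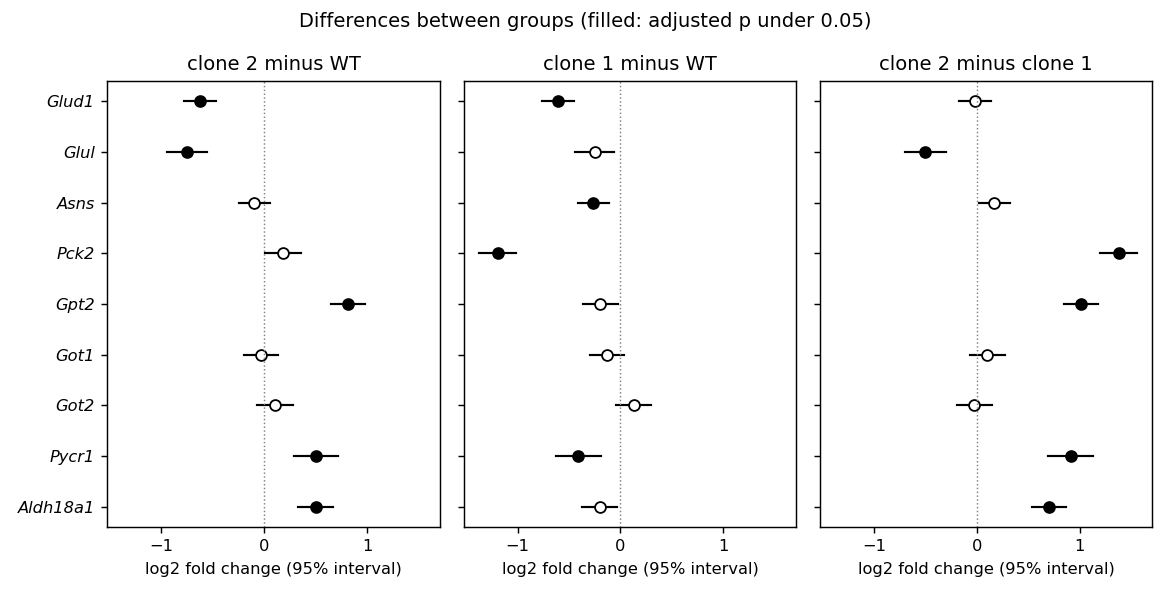
Log2 fold changes with 95% intervals for clone 2 minus WT, clone 1 minus WT and clone 2 minus clone 1; filled points passed an adjusted p of 0.05. Glud1 is shifted by the same amount in both clones, and Pck2, Gpt2, Pycr1 and Aldh18a1 lie right of 0 in the comparison of the clones.

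Genes near the members on the chromosomes showed median changes smaller than those of the called members. Tested genes within 500 kb numbered 2 to 39 per member, and their median log2 change lay between -0.25 and 0.09 in clone 2 and between -0.11 and 0.16 in clone 1. Around Glud1 the median of 11 neighbours was 0.02 in clone 2 and -0.06 in clone 1. Around Pck2 that of 31 neighbours was 0.03 in clone 2 and -0.04 in clone 1. The lowest median in clone 2, -0.25, was that of 6 neighbours of Glul, with 0.03 in clone 1. For 13 neighbours of Aldh18a1 it was -0.23 in clone 2 and 0.02 in clone 1.

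Genes widely described as ATF4 targets in amino acid supply, a list without the 9 members, differed between the clones. The list was written with earlier results of these data known, so its counts are no independent support. All 22 were called higher in clone 2 than in clone 1 (background 6.62%), with a median log2 difference of 0.57. Against WT, 9 rose (background 10.1%) and 1 fell (7.81%) in clone 2, with a median of 0.19, and 15 fell (9.53%) and 0 rose (12.4%) in clone 1, with a median of -0.42. For genotype 0 were called by edgeR, while 1 was higher and 2 were lower at an unadjusted p under 0.05 and DESeq2 called 1 lower. In clone 1, DESeq2 also called 0 higher, and 1 was higher at an unadjusted p under 0.05. The count of 22 fell to 17 without clone 2 replicate 1 and to 15 without clone 2 replicate 2. Against WT, the count of 9 higher in clone 2 fell to 3 without either library of clone 2 and to 4 without either WT library, and was 13 without either library of clone 1. The 15 lower in clone 1 became 13 without WT replicate 1 and 10 without WT replicate 2. Psat1, a serine synthesis transaminase that uses glutamate, had 723 and 691 CPM in clone 2, 402 and 361 CPM in clone 1, and 626 and 597 CPM in WT. It fell by 0.68 ± 0.08 in clone 1 (adjusted p = 1.12e-05) and lay 0.89 ± 0.08 higher in clone 2 than in clone 1 (adjusted p = 1.14e-06). Cbs, of the transsulfuration pathway, fell by 1.78 ± 0.10 in clone 1, and the glutamine importer gene Slc38a2 fell by 0.79 ± 0.08 there. In clone 2 their changes of -0.19 ± 0.10 and 0.01 ± 0.08 were not called. Psat1 also stands in the list of other glutamate enzymes, and Slc38a2, Slc7a5, Slc7a11 and Slc3a2 in that of carriers.

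The list of ATF4, its kinases, partners and feedback genes had 21 tested members, of which 11 were called higher (background 6.62%) and 1 lower (7.71%) in clone 2 than in clone 1, with a median difference of 0.40. Against WT, 7 rose (background 10.1%) and 2 fell (7.81%) in clone 2, and 2 rose (12.4%) and 10 fell (9.53%) in clone 1. The 7 higher in clone 2 became 3 when replicate 1 of clone 2 was left out, and 2 when its replicate 2 or WT replicate 1 was. The 2 lower in clone 2 became 1 without any 1 library of clone 2 or WT. Atf4 itself had 449 and 448 CPM in clone 2, 302 and 307 CPM in clone 1, and 401 and 415 CPM in WT. It fell by 0.42 ± 0.07 in clone 1 (adjusted p = 6.10e-04) and was 0.14 ± 0.07 in clone 2 (adjusted p = 0.225, not called). The clones differed by 0.56 ± 0.07 (adjusted p = 8.20e-05). Nupr1, a stress-induced chromatin factor, fell by 0.95 ± 0.11 in clone 1 and was not called in clone 2. Cebpb, a bZIP partner of ATF4, fell in both clones, by 1.10 ± 0.19 in clone 2 and by 1.95 ± 0.21 in clone 1 (genotype adjusted p = 0.0161, lost without either WT library). ATF4 is controlled mainly at translation, so its RNA is no measure of its activity.

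**Figure D4:**
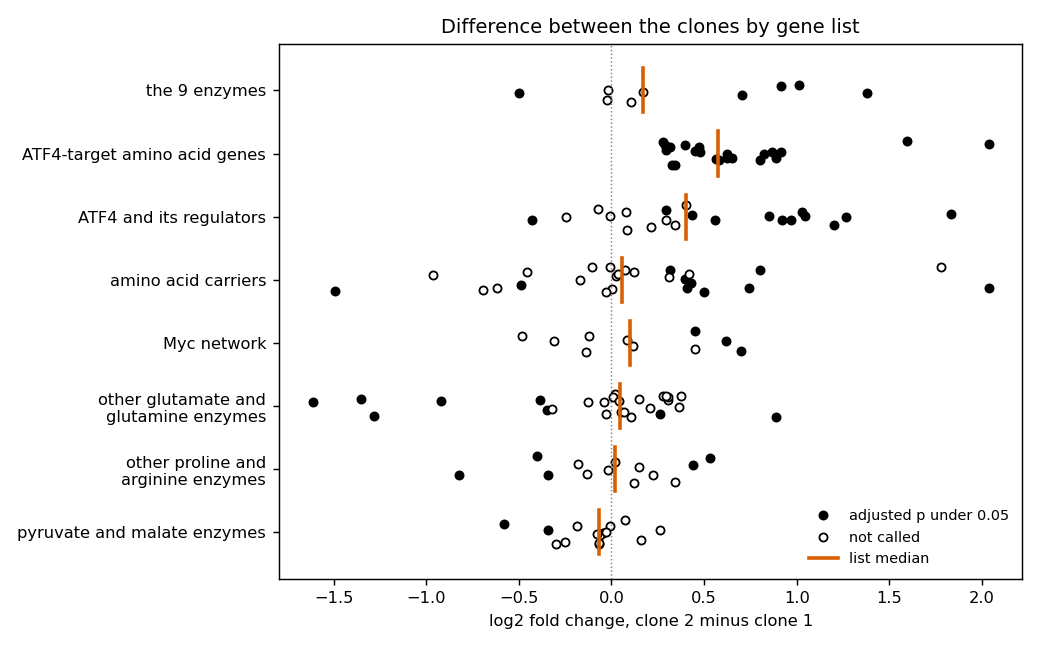
Log2 fold change of clone 2 minus clone 1 for each tested gene, by list; filled points passed an adjusted p of 0.05 and the bar is the list median. All 22 ATF4-target amino acid genes lie right of 0, while the medians were 0.05 for the other glutamate genes, 0.02 for the proline list, -0.07 for the pyruvate list, 0.06 for the carriers and 0.10 for the Myc network.

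Of 26 other glutamate and glutamine enzymes tested, 1 rose (background 4.25%) and 1 fell (2.11%) for genotype. In clone 2, 2 rose (background 10.1%) and 2 fell (7.81%) against WT. In clone 1, 4 rose (12.4%) and 4 fell (9.53%). Single genes moved more than any member did in either clone. Aspg changed by -1.80 in clone 2 (adjusted p = 9.40e-06) and Aldh5a1 by 1.68 in clone 1 (adjusted p = 5.65e-06). Gad1, which makes GABA from glutamate, rose by 0.97 ± 0.20 (adjusted p = 0.0196), to 14.3 ± 2.17 CPM over the libraries labelled knockout (SD, n = 4), against 7.31 ± 0.736 CPM in WT (n = 2). Ass1, which joins citrulline and aspartate, fell by 0.64 ± 0.08 (adjusted p = 0.00248), to 273 ± 12.3 CPM, against 425 ± 29.6 CPM in WT. Without WT replicate 2 the calls of both were lost, and without WT replicate 1 that of Gad1. In this list 2 genes were higher (background 6.62%) and 6 lower (7.71%) in clone 2 than in clone 1.

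Among 13 tested proline and arginine enzymes outside the members, 2 fell for genotype and 0 rose. Pepd, a dipeptidase that frees proline, fell by 0.39 ± 0.10 (adjusted p = 0.0462). Of 16 pyruvate, phosphoenolpyruvate and malate enzymes, 1 rose and 2 fell. Me1, the cytosolic malic enzyme, rose by 0.51 ± 0.11 (adjusted p = 0.0295). Pdha1, a pyruvate dehydrogenase subunit, fell by 0.35 ± 0.08 (adjusted p = 0.0417), and Eno1, a glycolytic enolase, fell by 0.27 ± 0.07 (adjusted p = 0.0462). Pcx, which carboxylates pyruvate to oxaloacetate, was called in no comparison. Of 26 carriers, 2 fell and 0 rose for genotype, Sfxn1, the mitochondrial serine carrier, by 0.38 ± 0.09 (adjusted p = 0.0291) and Slc6a15, a neutral amino acid transporter that carries proline, by 0.80 ± 0.20 (adjusted p = 0.0488). Counts of called carriers differed by clone. Against WT, 5 rose (background 10.1%) and 3 fell (7.81%) in clone 2, and 1 rose (12.4%) and 8 fell (9.53%) in clone 1. Between the clones, 8 were higher (background 6.62%) and 2 lower (7.71%) in clone 2 than in clone 1. Slc7a5, Slc7a11 and Slc3a2 were called higher in clone 2 than in WT and than in clone 1. They also stand in the ATF4 target list, as does Slc38a2, higher in clone 2 than in clone 1. The counts of carriers and of ATF4 targets are thus not independent. The 5 that rose in clone 2 became 1 without any 1 library of clone 2 or WT, and the 3 that fell became 0 to 2. The 8 lower in clone 1 became 5 without WT replicate 1, and the 8 between the clones became 4 without clone 2 replicate 2. In the Myc network, tied to glutamine use in many cells, 2 of 10 fell and 0 rose, Myc by 1.28 ± 0.21 (adjusted p = 0.00885) and its partner Max by 0.43 ± 0.08 (adjusted p = 0.0145). The genotype calls of all genes named in this paragraph were lost without either WT library. Background shares for genotype are those given for Glud1, and where 0 rose by edgeR, the numbers higher at an unadjusted p under 0.05 were 0 of the proline list, 1 of the carriers and 1 of the Myc network, and 0 of each by DESeq2.

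Profiles across the 6 libraries were matched by the distance between log2 CPM values, each gene centred on its own mean. Glud1 was nearest to Chchd4 (distance 0.106), Degs1 (0.124) and Cald1 (0.125), which changed by -0.58, -0.55 and -0.68 in clone 2 and by -0.52, -0.49 and -0.63 in clone 1. Glul was nearest to Crxos (0.137), Nr6a1 (0.163) and Mkrn1 (0.164), and Asns to Nop58 (0.0419), Larp7 (0.0497) and Dazap2 (0.0546). The libraries fall into 3 groups, so this likeness describes group means and little more.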

How the data were processed

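RNA-seq libraries of 3 groups with 2 libraries each were analysed; the 6 samples of a time course from day 0 to day 7 were not analysed here. The authors deposited whole-number read counts per gene. The build mm10 is named with DESeq2 1.18.1, HISAT2 2.1.0 and HTSeq 0.9.1, without roles, per the submitters' processing notes. The gene annotation and the strand setting were not given in the sources used here. The 5 HTSeq summary entries, 36.4% to 40.0% of all reads, stayed out of library sizes and tests.

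Genes were kept by filterByExpr, scaled by TMM and tested with edgeR 4.0.16 (R 4.3.3), quasi-likelihood F test, two-sided, with Benjamini-Hochberg adjustment over all tested genes; a gene was called at an adjusted p under 0.05. Clone comparisons came from 1 fit of all 6 libraries, and genotype from a fit of 4 libraries labelled knockout against 2 of WT. CPM values use TMM-scaled totals, and log2 CPM a prior count of 2. Intervals are at 95%. The depth of 11976149 to 13923262 gene counts sets the precision of low genes. The steps were tested on simulated data, where the share of false calls exceeded the nominal one in the clone comparisons. For genotype the simulated clones did not differ from each other. The error from counting 4 libraries of 2 clones as independent was therefore not tested. Exon lengths and positions come from GENCODE M21 (GRCm38, the assembly of mm10), promoters from RefSeq (GRCm38.p6).

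The members and lists were chosen with earlier results of these data known. Named genes outside the members were, per list, up to 4 called for genotype with the smallest p, filled up to 2 from the clone comparisons where fewer than 2 were called, and fixed partners or paralogs named in any case. Aspg, Aldh5a1, Gata4 and Sox2 were named outside this rule, for their changes against WT. So were Slc7a5, Slc7a11 and Slc3a2, for standing in more than 1 list. The 3 members with the smallest genotype p were matched to similar genes of at least 5 CPM. Alternatives were DESeq2 1.42.0, other scalings and filters, a replicate block, fewer libraries and other contrasts. Results of some genes of the lists are not reported here.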

Additional observations from a re-analysis of the deposited data

Results flagged for a closer look

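In the comparison of the clones with each other, 5 members differed: clone 2 minus clone 1 was 1.38 on the log2 scale for Pck2, 1.01 for Gpt2, 0.91 for Pycr1, 0.70 for Aldh18a1 and -0.50 for Glul. This contrast was tested directly in the fit of all 6 libraries.

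Among the 4 libraries labelled knockout, 1 library stood apart from the other 3 in 3 genes outside the members. The gap to the nearest library, as a share of the whole range, was 0.933 for Pcx, 0.928 for Gpt and 0.874 for Bcat2, the mitochondrial branched-chain transaminase, each past Dixon's critical value. For Pcx the library was clone 2 replicate 1, at 47.9 CPM, and for Gpt it was also clone 2 replicate 1, at 8.78 CPM. For Bcat2 it was clone 1 replicate 1, at 56.8 CPM. For 4 independent libraries of the same kind, chance alone gives such a gap in about 1 group in 20. These 4 libraries come from 2 clones, so that rate need not apply here. The number of genes screened is not given here, so the 3 genes cannot be set against that rate. Pck1, with 3 counts in 1 of these libraries and 0 in the others, was not among the tested genes and is not counted with them.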

How the results depend on the processing

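Over all alternatives, 440 of 468 values of single members kept their direction and their side of the threshold, 16 passed it newly, 6 lost the call and 6 changed sign. Every sign change was in a member not called in either fit. Leaving out each library in turn, Pycr1 for genotype ran from -0.050 to 0.26, with both negative values without a library of clone 2. Likewise Got1 in clone 2 ran from -0.100 to 0.035, and between the clones Got2 ran from -0.064 to 0.021 and Glud1 from -0.067 to 0.037. Same-numbered libraries deviated together with correlations of 0.125, 0.0513 and -0.0125, which cannot show whether replicate numbers pair the samples. The HTSeq summary entries held 37.0% of reads in clone 2 replicate 1 and 39.3% in replicate 2. Their share was 36.4% and 40.0% in clone 1, and 39.6% and 39.4% in WT. A batch shared by replicate number was not tested. With a replicate block, 7 members were lower in clone 1 rather than 4. All genes called then numbered 646 for genotype, 3685 in clone 2, 4410 in clone 1 and 3007 between the clones. Without the block they numbered 951, 2674, 3280 and 2141.

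For genotype, members called lower were 2 by DESeq2, 2 without the filter and 4 as the mean of both clone contrasts, which also called 1 higher. That mean counts spread within clones alone. Of the 129 tested genes of the pathway lists, 2 were higher for genotype (background 4.25%) and 10 lower (2.11%). The 2 higher became 5 by DESeq2, 4 without TMM, 6 without the filter and 11 for the mean of contrasts. The 10 lower became 17 without the filter and 29 for the mean. All genes called for genotype were 951, but 1752 without the filter and 3226 for the mean. In clone 1, pathway genes higher were 13 (background 12.4%), but 20 without TMM. All genes called in clone 2 were 2674, but 4065 in a fit of the 4 libraries compared.

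Leaving out each library in turn gave these ranges. For genotype, members lower were 0 to 1, pathway genes 0 to 4 higher and 0 to 9 lower, and all genes 79 to 948. In clone 2, pathway genes were 7 to 32 higher and 4 to 23 lower, and all genes 1165 to 4191. In clone 1, members lower were 2 to 5 and all genes 1576 to 4310. Between the clones, members lower were 0 to 1, pathway genes 28 to 48 higher and 8 to 19 lower, and all genes 974 to 3155. Leaving out a library leaves 1 in its group, assumed to vary like the others. The causes of the other shifts were not tested.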
